A study of Mus musculus with 8 samples.

Results

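The antimicrobial defensins and epithelial inhibitors of mouse cheek skin were followed through 9 of the 18901 genes in the deposited table, chosen by symbol. They comprised 5 beta-defensins (Defb1, Defb3, Defb4, Defb6 and Defb14), the protease inhibitor Slpi and its relative Wfdc12, and the bactericidal proteins Pglyrp1 and Reg3g. TBX20fl/fl;K14-Cre mice (knockout, n = 4) were compared with TBX20fl/fl mice, which carry the floxed alleles without Cre (control, n = 4). The Cre line came from a C57BL/6N and the floxed line from a C57BL/6J background, and the share of each in the 2 groups is not given in the sources used here. All mice were 7-week-old females, all had received 10 µg of BNP in the cheek, and skin was taken 5 h after a 30 min recording of behaviour. Each mouse was 1 library. Because every library came from BNP-injected skin, a response to BNP itself was not measured here. Cre was driven by the keratin 14 promoter, which is active in basal keratinocytes and other stratified epithelia, and it removes exons 2 to 3 of Tbx20, while the sequenced tissue was whole skin with its muscle, immune cells and hair follicles.

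Tbx20 had 0 to 2 counts in the knockout mice and 0 to 3 counts in the control mice, so the deletion could not be checked at this depth. Npr1, the BNP receptor, had a fitted log2 fold change of 0.51, above 0 in knockout mice (SE 0.31, adjusted p = 0.502, edgeR). Its FPKM was 4.74 to 9.22 in knockout mice, 1.85 in control mouse 2 and 5.08 to 6.78 in the other control mice. Markers of basal keratinocytes, which are not particular to skin among stratified epithelia, were present in every library: the summed FPKM of 7 basal markers was 2387 to 3117 in the 8 mice. Totals of 16056282 to 19880654 counts were deposited per mouse. Control mouse 2 had the lowest total and stood apart, with a TMM scaling factor of 0.735 against 1.01 to 1.08 in the other 7 mice, and its values are treated with those of each gene below. Genes with fewer than 10 counts in all mice together were set aside, and across the remaining 17124 the quasi-likelihood test of edgeR found no gene with an adjusted p-value under 0.05, which is 0% called, and 1012 lower and 419 higher genes at an unadjusted p under 0.05. DESeq2 called 10 genes, and none of the 9 genes described here was among them.

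Beta-defensins are small cationic peptides that disrupt microbial membranes and attract immune cells through chemokine receptors. Some are made by resting epithelium and others are induced by injury, bacteria and cytokines of the interleukin-1 and interleukin-17 families. SLPI, the secretory leukocyte protease inhibitor, blocks neutrophil elastase and cathepsin G, and it comes from both epithelial cells and neutrophils. PGLYRP1 binds bacterial peptidoglycan and is stored in neutrophil granules, and REG3G is a C-type lectin of the gut that keratinocytes can also make in inflamed skin. TBX20, the factor removed in the knockout mice, is a T-box transcription factor.

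Of the 9 genes, 6 had a promoter in the RefSeq table used (GRCm38.p6), and 4 are shown, since they bear on the pairs compared below. Defb6 and Defb3 lie in 1 cluster of chromosome 8 and had the highest and lowest level of the defensins. The 250 bases before their starts are given 5′ to 3′, with capitals marking runs of at least 12 bases that both promoters contain.
Defb6 (chr8:19225228-19225477, plus strand): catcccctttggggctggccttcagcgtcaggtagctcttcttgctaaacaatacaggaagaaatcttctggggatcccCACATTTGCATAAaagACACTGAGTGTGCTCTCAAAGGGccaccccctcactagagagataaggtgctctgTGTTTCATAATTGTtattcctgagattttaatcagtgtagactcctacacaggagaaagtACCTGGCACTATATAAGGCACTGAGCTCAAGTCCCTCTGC
Defb3 (chr8:19293111-19293360, plus strand): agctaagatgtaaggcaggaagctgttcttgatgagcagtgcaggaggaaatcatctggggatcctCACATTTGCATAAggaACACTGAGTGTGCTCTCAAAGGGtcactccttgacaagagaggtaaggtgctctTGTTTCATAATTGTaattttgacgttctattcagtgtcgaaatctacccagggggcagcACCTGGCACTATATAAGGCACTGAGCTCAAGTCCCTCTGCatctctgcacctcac
These 4 shared runs covered 90 bases of each, the longest run being 40 bases, and 78.4% of the bases were identical in a global alignment. The other 14 pairs among the 6 promoters were 54.0% to 61.2% identical. Slpi had the smallest p-value of the 9 genes, and Pglyrp1 was the only one of the 6 promoters to hold the T-box letters, so both are given with motif matches in capitals.
Slpi (chr2:164356508-164356757, minus strand): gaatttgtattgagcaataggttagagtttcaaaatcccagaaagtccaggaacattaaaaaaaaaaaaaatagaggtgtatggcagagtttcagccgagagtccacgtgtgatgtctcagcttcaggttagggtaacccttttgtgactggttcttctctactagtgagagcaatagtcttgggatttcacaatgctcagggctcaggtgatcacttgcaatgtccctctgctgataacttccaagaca
Pglyrp1 (chr7:18884440-18884689, plus strand): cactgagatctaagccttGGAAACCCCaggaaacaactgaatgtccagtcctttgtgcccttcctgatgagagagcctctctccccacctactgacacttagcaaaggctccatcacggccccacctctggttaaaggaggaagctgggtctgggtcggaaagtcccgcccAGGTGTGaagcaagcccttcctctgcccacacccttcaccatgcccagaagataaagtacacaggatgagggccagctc
The letters searched, on both strands of the 300 bases from 250 before to 50 after each start, were AGGTGTG for T-box factors, GGGNNTTCC for NF-kB and TTCNNNGAA for STAT factors. Among all 32851 promoters in the table, 5.84%, 5.82% and 8.30% held them, respectively. In the Pglyrp1 promoter the T-box letters lay at bases -79 to -73 and the NF-kB letters, read on the minus strand, at bases -232 to -224. Reg3g held NF-kB letters at bases -122 to -114. In Slpi, Wfdc12, Defb6 and Defb3 none of the searched letters were found in this window, which says nothing about whether those factors bind there.

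No member passed the adjusted threshold, but the fitted level of all 8 members that could be tested was lower in the knockout mice. Their median log2 fold change was -0.88, against 0.03 over all genes tested, and 47.5% of all genes had a value below 0. When each mouse was left out in turn, the median of the members ranged from -1.39 (without knockout mouse 2) to -0.68 (without control mouse 2). At an unadjusted p under 0.05, 4 of the 8 were lower (Slpi, Pglyrp1, Defb14 and Defb3), beside 5.91% of all genes. No member had every knockout FPKM below every control FPKM, which was the case for 1.87% of genes. The ninth gene, Reg3g, had 2 counts in all and was below the filter of 10 counts. These 9 genes are short: effective transcript lengths, derived from the deposited counts and FPKM, ran from 273 (Defb3) to 867 bases (Defb1) against a median of 2841 bases. Among the 1125 tested genes no longer than 867 bases, 85.0% had a value below 0, 20.3% were lower at an unadjusted p under 0.05, and the median was -0.62. The 8 of 8 lower members therefore stood beside a background that was itself mostly lower in short transcripts.

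**Figure D1:**
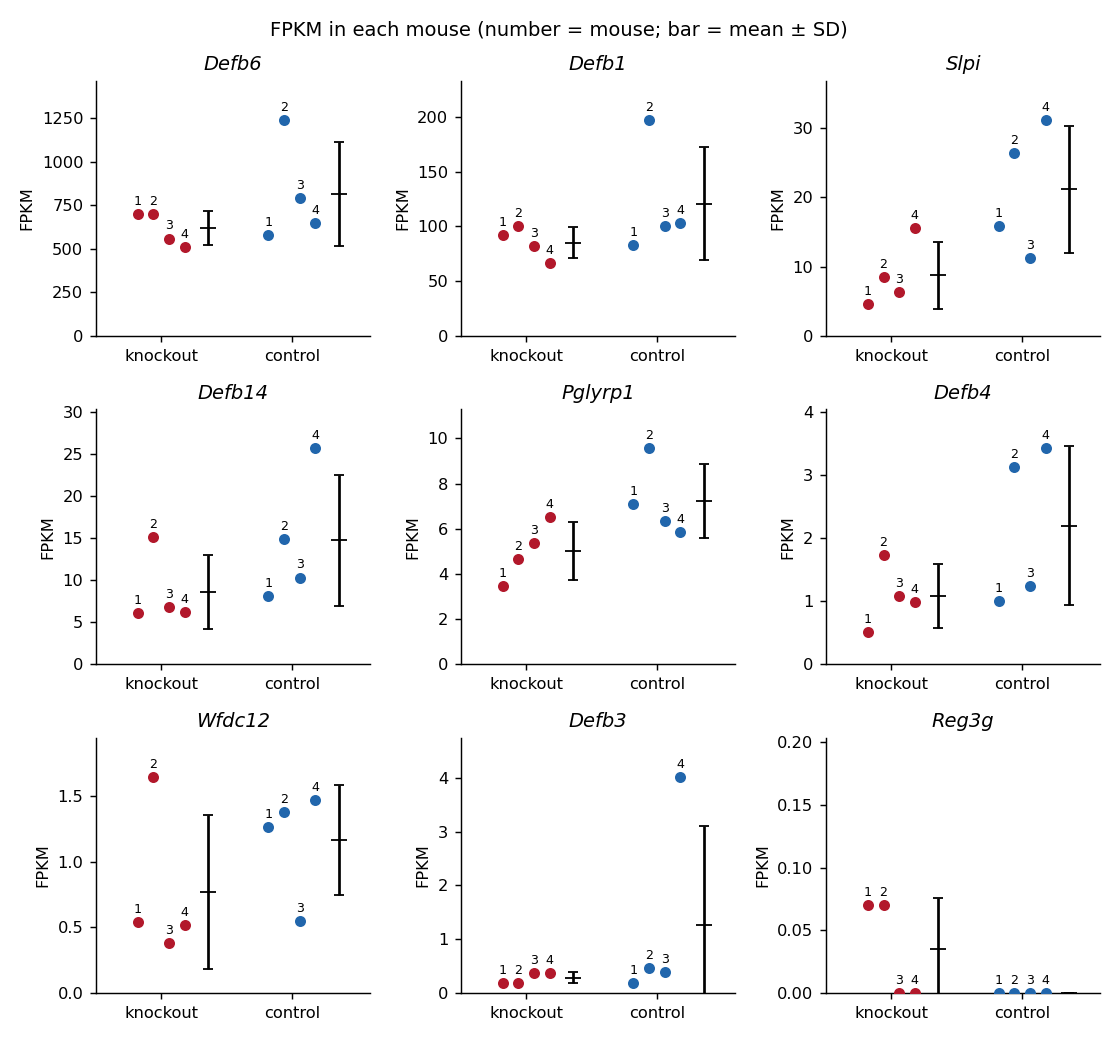
FPKM (y axis, from 0, a scale of its own in each panel) of the 9 genes in each knockout (red) and control (blue) mouse, numbered by mouse, with black bars for mean ± SD (n = 4, cut off at 0). The groups overlapped in every panel; control mouse 2 was highest for Defb6 and Defb1, and control mouse 4 for Slpi, Defb14, Defb4 and Defb3.

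The order of levels per length was the same at its top in every mouse. Defb6, with a median of 675 FPKM over the 8 mice, exceeded Defb1 (median 95.9 FPKM) in 8 of 8 mice, and Defb1 exceeded each of the other 7 genes in 8 of 8 mice. Defb6 ranked 144th of 18901 genes by mean FPKM. Slpi (median 13.4 FPKM), Defb14 (9.24 FPKM) and Pglyrp1 (6.11 FPKM) followed with overlapping ranges, and Slpi was above Defb14 in 5 of 8 mice. Defb4 (1.17 FPKM), Wfdc12 (0.91 FPKM) and Defb3 (0.37 FPKM) also overlapped each other, and Reg3g was last. Defb6 and Defb3, whose promoters were 78.4% identical, thus stood at opposite ends of the defensins, Defb3 with 1 or 2 counts in 7 of the 8 mice.

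Defb1 is generally regarded as constitutive in epithelia, and Defb6 is known from skeletal muscle as well as epithelia. Skeletal muscle markers, 7 of 7 detected, summed to 14316, 8640, 11433 and 12245 FPKM in knockout mice 1 to 4 and 11357, 15839, 11958 and 13139 FPKM in control mice 1 to 4, and which cells of the skin sample made Defb6 was not tested. Defb6 (chr8:19225478-19228209) measured 702, 699, 560 and 510 FPKM in knockout mice 1 to 4 and 580, 1240, 790 and 651 FPKM in control mice 1 to 4. Control mouse 2 stood far above the rest, control mouse 3 came next, and the other 6 mice were interleaved. The means were 617.7 ± 97.7 FPKM in knockout and 815.4 ± 296 FPKM in control mice (SD, n = 4 each; two-sided exact permutation p = 0.257). The fitted log2 fold change of Defb6 was -0.65 (SE 0.34, adjusted p = 0.498, edgeR). It became -0.17 without control mouse 2 and turned to 0.21 when each library's trend with transcript length was removed.

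Defb1 (chr8:21776555-21795185) was also highest in control mouse 2, at a lower level. Its FPKM was 91.8, 100.02, 82.1 and 66.6 in knockout mice 1 to 4 and 83.4, 197, 100.12 and 103 in control mice 1 to 4. Control mouse 2 was far above the others, control mice 3 and 4 lay just above the highest knockout mouse, and control mouse 1 lay below 2 of the knockout mice. The log2 fold change was -0.76 (SE 0.37, adjusted p = 0.498, edgeR; two-sided exact permutation p on FPKM = 0.143), and it was -0.21 without control mouse 2 and -0.16 with the length trend removed. The ratio of Defb6 to Defb1 within a mouse, which no scaling between libraries can alter, varied little. It ranged from 6.29 to 7.89 and averaged 7.28 ± 0.439 in knockout and 6.87 ± 0.744 in control mice (SD, n = 4 each; two-sided exact permutation p = 0.371).

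Defb14, Defb4 and Defb3 are inducible, Defb14 being the mouse counterpart of human beta-defensin 3 and Defb4 that of human beta-defensin 2. Defb14 (chr8:19160244-19195309) measured 6.09, 15.1, 6.87 and 6.27 FPKM in knockout mice 1 to 4 and 8.16, 14.85, 10.3 and 25.65 FPKM in control mice 1 to 4. Of the knockout mice, 3 lay below every control mouse, and knockout mouse 2 was above 3 of the controls. The log2 fold change was -0.98 (SE 0.41, unadjusted p = 0.0417, adjusted p = 0.498, edgeR; two-sided exact permutation p on FPKM = 0.2). It was -1.33 without knockout mouse 2, -0.72 without control mouse 4 and -0.37 with the length trend removed.

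Defb4 (chr8:19198704-19201547) was rare, with 4 to 14 counts in knockout mice and 8 to 27 counts in control mice. Its FPKM was 0.51, 1.74, 1.09 and 0.99 in knockout mice 1 to 4 and 1.00, 3.14, 1.24 and 3.43 in control mice 1 to 4. Control mice 2 and 4 were high, and the other 6 mice overlapped. The log2 fold change was -1.23 (SE 0.55, adjusted p = 0.498, edgeR; two-sided exact permutation p on FPKM = 0.2), and -0.56 with the length trend removed. Of the 50-base stretches in its transcript 5.68% also occur in Defb8, another beta-defensin gene, so some of its reads could belong to either gene.

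Defb3 (chr8:19293361-19295339) had 1, 1, 2 and 2 counts in knockout mice 1 to 4 and 1, 2, 2 and 21 counts in control mice 1 to 4. Control mouse 4 alone carried it, and the other 7 mice were at or below 2 counts. Over the groups this was 6 counts against 26, a control-to-knockout ratio of 4.62 (95% exact interval 1.86 to 13.7, counting error only). Without control mouse 4 the ratio was 1.20 (0.289 to 4.71), so the fitted log2 fold change of -2.20 (SE 0.96, adjusted p = 0.498, edgeR) became -0.44.

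The 4 genes Defb14, Defb4, Defb6 and Defb3 lie in this order within 135 kb of chromosome 8. Defb5, between Defb6 and Defb3 in the same stretch, had 0 or 1 count in each mouse. Defb6 was thus the 1 abundant gene in this stretch. Defb1 lies further along the chromosome.

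Slpi had the smallest p-value of the members. Its FPKM was 4.58, 8.45, 6.39 and 15.6 in knockout mice 1 to 4 and 15.9, 26.4, 11.2 and 31.2 in control mice 1 to 4. Knockout mice 1, 2 and 3 lay below every control mouse, and knockout mouse 4 lay between control mice 3 and 1. The means were 8.76 ± 4.84 FPKM and 21.2 ± 9.21 FPKM (SD, n = 4 each), 2.42-fold higher in control mice, from 73 to 257 counts and 176 to 494 counts per mouse. The two-sided exact permutation p was 0.0571, where 70 assignments allow no p below 0.0286. In edgeR the log2 fold change of Slpi (chr2:164354070-164356507, minus strand) was -1.48 (SE 0.46, unadjusted p = 0.00948, adjusted p = 0.498).

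Slpi was lower in 15 of the 16 comparisons of 1 knockout with 1 control mouse. Its log2 fold change ranged from -1.91 to -1.19 when each mouse was left out in turn and was -0.97 (unadjusted p = 0.0488, edgeR) with the length trend removed. The unadjusted p of Slpi was under 0.05 in all 20 settings run, and its adjusted p ranged from 0.147 (DESeq2) to 0.691.

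Wfdc12 (chr2:164189231-164190558, minus strand), a small inhibitor with the whey acidic protein domain that Slpi also has, lies within the same 167 kb. It measured 0.54, 1.65, 0.38 and 0.52 FPKM in knockout mice 1 to 4 and 1.27, 1.38, 0.55 and 1.47 FPKM in control mice 1 to 4. Knockout mouse 2 was the highest of all 8 mice, while the other knockout mice were below every control mouse. The log2 fold change of -0.77 (SE 0.54, adjusted p = 0.514, edgeR; two-sided exact permutation p on FPKM = 0.4) became -1.44 without knockout mouse 2 and -0.31 with the length trend removed. Wfdc12 rested on 5 to 22 counts per mouse, and 10.9% of its 50-base stretches are shared with A730032A03Rik, named here for that reason after the values were seen.

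Pglyrp1 (chr7:18884690-18890438) measured 3.45, 4.65, 5.39 and 6.51 FPKM in knockout mice 1 to 4 and 7.10, 9.56, 6.34 and 5.87 FPKM in control mice 1 to 4. Knockout mouse 4 was above control mice 3 and 4, and otherwise the knockout mice were lower. The means were 5.00 ± 1.29 FPKM and 7.22 ± 1.64 FPKM (SD, n = 4 each; two-sided exact permutation p = 0.0857). The log2 fold change was -0.74 (SE 0.31, unadjusted p = 0.0401, adjusted p = 0.498, edgeR), -0.41 without control mouse 2 and -0.14 with the length trend removed. Reg3g (chr6:78466269-78468874, minus strand) had 1 count in knockout mice 1 and 2 and 0 counts in the other 6 mice. A count of 0 allows up to 3 counts, or 0.151 to 0.187 CPM by mouse, so Reg3g was not detectable above this floor in either genotype.

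**Figure D2:**
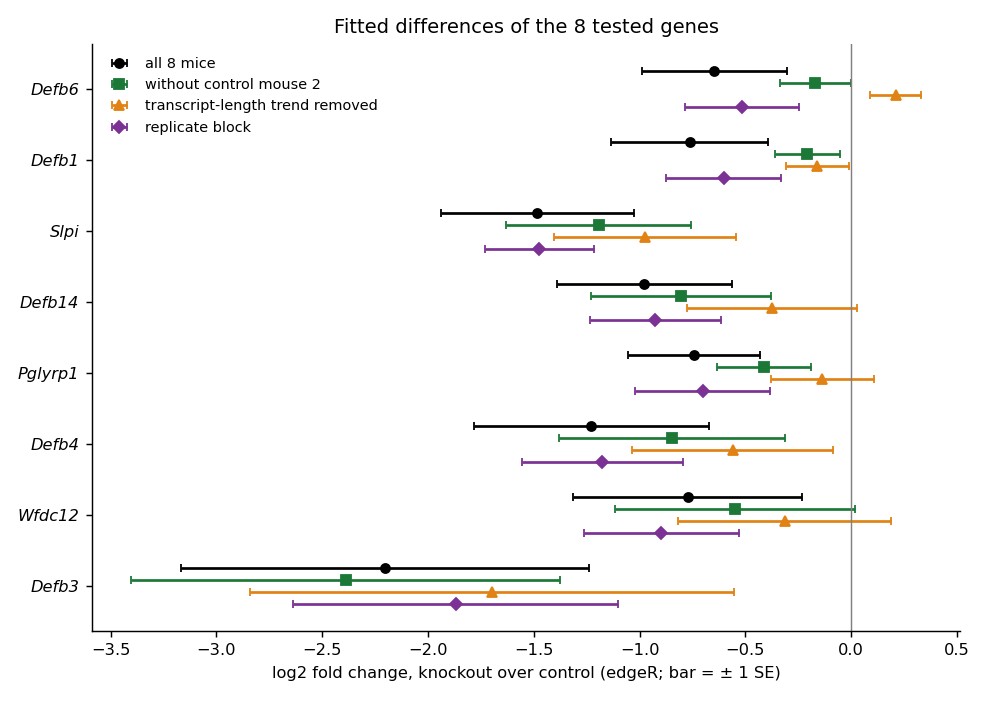
Log2 fold change, knockout over control, of the 8 tested genes (x axis; points with bars of 1 SE, edgeR) with all 8 mice, without control mouse 2, with each library's transcript-length trend removed and with a replicate block in the fit. Slpi stayed between -1.48 and -0.97 under these settings, while Defb6 moved from -0.65 to 0.21.

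Transcript length moved with control mouse 2. Across 13298 genes the difference between control mouse 2 and the median of the other mice fell with length: its median was 1.12 in the shortest 20% of genes and -1.24 in the longest 20% (log2 CPM). At the lengths of the 8 tested genes, the trend of control mouse 2 was 1.05 to 1.57, and the genes themselves deviated by 0.47 (Defb3) to 1.81 (Defb4). The trends of all 8 libraries together gave a knockout-minus-control difference of -0.72 to -0.45 at these lengths. It was -0.72 at Defb6, beside a fitted difference of -0.65, and -0.46 at Slpi, beside a fitted difference of -1.48. The cause of the length trend was not tested.

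**Figure D3:**
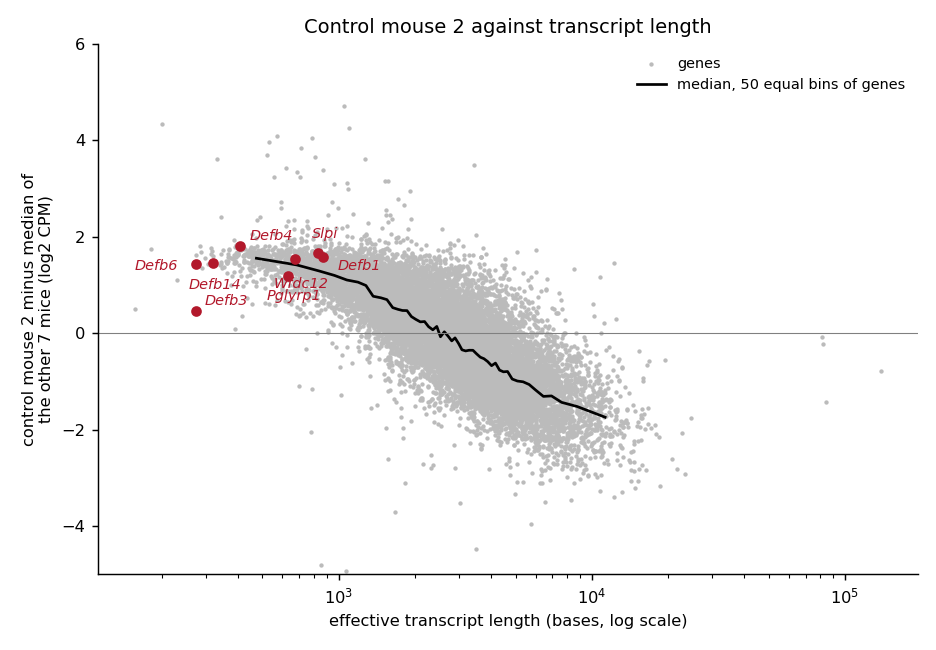
Log2 CPM of control mouse 2 minus the median of the other 7 mice (y axis) against effective transcript length in bases (x axis, log scale) for 13298 genes in grey, their running median in black and the 8 tested genes in red. All 8 lie at the short end, and they deviated by 0.47 to 1.81.

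The number of members lower at an unadjusted p under 0.05 changed with the mice included, as did the share over all genes, and no member passed the adjusted threshold under any setting. It was 4 with all mice (5.91% of all genes), and 1, 4, 1 and 2 without knockout mouse 1, 2, 3 or 4 (3.15%, 4.06%, 3.22% and 4.10% of all genes). It was 7, 2, 5 and 2 without control mouse 1, 2, 3 or 4 (10.9%, 4.50%, 4.36% and 9.89% of all genes). With the length trend removed, 1 member was left (5.20% of all genes), which was Slpi, and the median over the 8 members was -0.34, with 7 of 8 below 0.

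Lists of cell markers differed in whether they moved with the members, and their part in the results was not tested. All 11 neutrophil markers and 3 of 4 stressed-epidermis keratins had a log2 fold change below 0, beside 47.5% of all genes. Of the basal keratinocyte markers 2 of 7 were below 0 (median 0.26), and all 8 hair follicle markers were above 0 (median 2.59). Neutrophil markers, 11 of 11 detected, summed to 113, 223, 173 and 306 FPKM in knockout mice 1 to 4 and 304, 949, 340 and 991 FPKM in control mice 1 to 4. Of the 11, 8 were lower in knockout mice at an unadjusted p under 0.05 in edgeR, Ly6g was at most 0.56 FPKM in any mouse, Mrgpra2b was listed at 0 in knockout mice 1 and 3, and Ngp was listed at 0 in knockout mouse 2. S100a8 and S100a9, which stressed keratinocytes also express, made up most of these sums. Without them the remaining 9 genes summed to 31.9, 44.5, 39.8 and 64.9 FPKM in knockout and 67.6, 92.0, 54.6 and 86.4 FPKM in control mice. In control mouse 2 this sum rested mainly on Retnlg (46.0 FPKM) and Stfa2l1 (17.7 FPKM). The Csf3r (8.66 FPKM) and Mmp9 (1.69 FPKM) of that mouse were the lowest of all 8 mice. Ranked by the sum of the 9 genes, the mice stood in the same order as by Slpi, with the 1 exception that control mice 2 and 4 changed places at the top. By Pglyrp1, knockout mouse 1 was again lowest and control mouse 2 highest, knockout mice 2 and 3 changed places, and control mouse 4 stood lower than by the sum, with the lowest Pglyrp1 among the control mice. In bulk skin, fewer cells of a type and less RNA per cell cannot be told apart.

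Keratins of stressed epidermis (Krt6a, Krt6b, Krt16 and Krt17, 4 of 4 detected) summed to 241, 491, 275 and 339 FPKM in knockout mice 1 to 4 and 325, 291, 285 and 1038 FPKM in control mice 1 to 4. Control mouse 4 and knockout mouse 2, the highest and second highest, were also highest and second highest for Defb14. In knockout mouse 2 this sum rested mainly on Krt17 (405 FPKM), and its Krt6a (70.6 FPKM) was the second highest of all mice. Its Krt6b (3.21 FPKM) was the lowest of all mice and its Krt16 (12.9 FPKM) the second lowest. Of the 4 keratins, 3 were lower in knockout mice at an unadjusted p under 0.05 in edgeR, beside 5.91% of all genes. Of the hair follicle markers, 8 of 8 detected, 6 were higher in knockout mice at an unadjusted p under 0.05 in edgeR. Over all 17124 genes tested this number was 419. The hair follicle markers summed to 1359 FPKM in knockout mouse 2, 30.3 to 183 FPKM in the other knockout mice and 16.7 to 78.1 FPKM in the control mice. Knockout mouse 2 was also the knockout mouse with the most Defb14, Defb4 and Wfdc12. Oral mucosa markers, 4 of 5 with at least 10 counts over the mice and Krt76 at 0.06 FPKM or less, summed to 1.92 to 9.43 FPKM in knockout and 1.83 to 4.42 FPKM in control mice. Macrophage markers, 8 of 8 detected, summed to 409 to 620 FPKM in knockout and 425 to 696 FPKM in control mice, and 3 of the 8 were lower at an unadjusted p under 0.05 in edgeR (Ly6c2, Fcgr1 and C1qb). Ly6c2, a monocyte marker, was 5.30 to 12.1 FPKM in knockout and 6.87 to 68.9 FPKM in control mice, highest in control mouse 4.

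**Figure D4:**
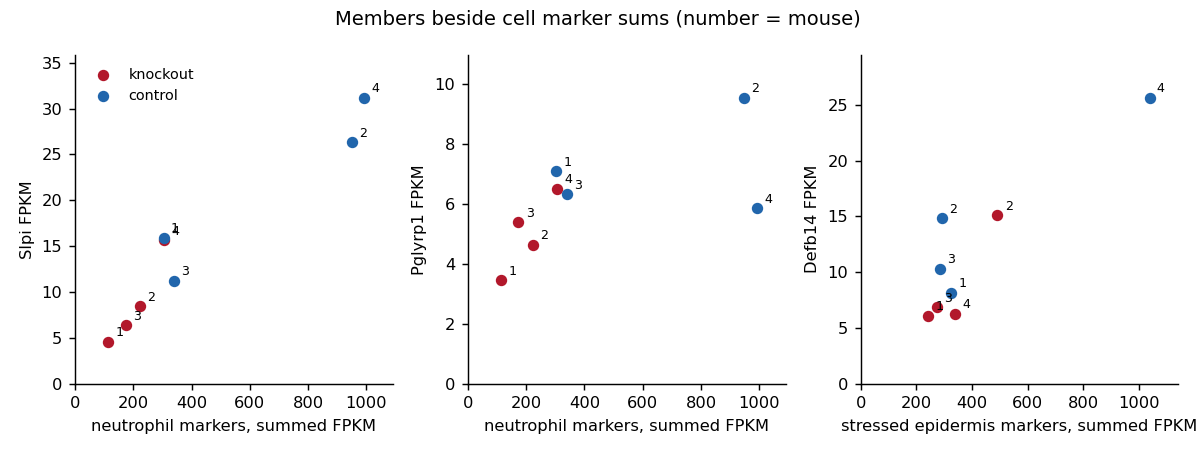
FPKM of Slpi and of Pglyrp1 (y axes) against the summed FPKM of 11 neutrophil markers, and FPKM of Defb14 against the summed FPKM of 4 stressed-epidermis keratins (x axes), in knockout (red) and control (blue) mice numbered by mouse. Slpi was highest in control mice 4 and 2, where the neutrophil sums were 991 and 949, and Defb14 was highest in control mouse 4, where the keratin sum was 1038.

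The patterns most like those of the members over the 8 mice were described by Pearson's r of log2 CPM among 14411 genes with a mean CPM of at least 1. Slpi was most like Trem1 (r = 0.99), a receptor of neutrophils and monocytes, Timp1 (r = 0.98), a metalloproteinase inhibitor, and Clec4d (r = 0.98), a myeloid lectin receptor. Without control mouse 2 these values were 0.988, 0.982 and 0.983. Defb14 was most like Chil1 (r = 0.97), Nedd1 (r = 0.96) and Il1f6 (r = 0.95), the last also called Il36a, an interleukin-1 family cytokine of keratinocytes. Pglyrp1 was most like Bid (r = 0.98), Batf (r = 0.98) and Nrgn (r = 0.98). Defb6 was most like Amn1, Znhit3 and 4921524J17Rik, and Defb1 most like Zfp995, Tefm and Psmd6, all at r = 0.996 or above over the 8 mice. The values over the 8 mice include control mouse 2 with its length trend. Without it the lowest r was 0.97 for the partners of Defb1, 0.98 for those of Defb6, 0.93 for those of Defb14 and 0.93 for those of Pglyrp1. The likeness is a description without a test, and the genes named are the top of 14411. Between members, Defb1 and Defb6 gave r = 0.98 (0.89 without control mouse 2) and Slpi and Pglyrp1 gave r = 0.82 (0.72 without it). Defb14 gave 0.709 with Defb1, 0.634 with Defb6, 0.741 with Slpi and 0.500 with Pglyrp1 (0.705, 0.438, 0.626 and 0.139 without it). Pglyrp1 with Defb1 and Defb6 fell from 0.714 and 0.684 to -0.220 and -0.267 without it. Slpi with Defb1 and Defb6 fell from 0.559 and 0.484 to 0.048 and -0.156.

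Genes of the same families, and serine proteases of neutrophils and mast cells, some of which SLPI inhibits, were mostly below 0 too, and none passed the adjusted threshold. Over all genes 47.5% were below 0 and 5.91% were lower at an unadjusted p under 0.05, and in genes up to 867 bases these shares were 85.0% and 20.3%. Of the other WFDC genes, 7 of 11 in the table were tested, all 7 were below 0 (median -0.70), 5 of them in the short class, and 2 had an unadjusted p under 0.05. Wfdc17, a secreted protein of activated macrophages, was 106 ± 20.8 FPKM in knockout and 206 ± 66.5 FPKM in control mice (SD, n = 4 each), with every knockout mouse below every control mouse and a log2 fold change of -1.20 (adjusted p = 0.498, edgeR). Wfdc3 was -0.80, and Wfdc21, the family's most abundant gene at 163 ± 32.5 and 222 ± 102 FPKM, was -0.70. Of the peptidoglycan recognition and REG genes, 4 of 5 were tested, all 4 were below 0 (median -0.52) and Pglyrp3, an epidermal relative of Pglyrp1, had an unadjusted p of 0.00559 at -0.66 in edgeR. Pglyrp4 was -0.37. Of the proteases, none of them in the short class, 6 of 6 were below 0 (median -0.70) and 3 had an unadjusted p under 0.05. Elane, the neutrophil elastase that SLPI blocks, had 1 to 3 counts in knockout and 2 to 11 in control mice. Prtn3, proteinase 3, which SLPI does not block, was -1.01 and the mast cell chymases Cma1 and Mcpt4 were -0.75 and -0.36. Other defensins and cathelicidin gave no such count, with 5 of 16 in the table tested, 2 below 0 and Camp, the cathelicidin gene, at 0 to 16 counts.

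Cytokines and receptors that can induce the members were measured for 24 genes, of which 18 were below 0 (median -0.32), 9 with an unadjusted p under 0.05 and none past the adjusted threshold. Il1b, which neutrophils and macrophages make in quantity, was 33.0 ± 19.9 FPKM in knockout and 114 ± 60.0 FPKM in control mice (SD, n = 4 each; log2 fold change -2.06, adjusted p = 0.498, edgeR). Il1a was -0.81, Il1f9 (also called Il36g) -0.70, Tnf -1.29 and the adaptor Myd88 -0.65. On the list of other epidermal antimicrobial proteins, 16 of 18 genes were below 0 (median -0.94), 9 of the 18 being in the short class, and 8 were lower at an unadjusted p under 0.05. The list also holds genes of myeloid cells, so in whole skin it does not stand for the epidermis alone. Lcn2, which sequesters bacterial siderophores, was 15.0 ± 2.81 FPKM and 39.3 ± 11.7 FPKM (SD, n = 4 each), a log2 fold change of -1.61 (adjusted p = 0.498, edgeR). Sprr2a3 was -1.74, S100a8 -2.10, S100a9 -2.09, Plac8 -1.03 and the most abundant, Lyz2, a lysozyme of macrophages, -0.83. S100a8 and S100a9 are also on the neutrophil list.

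**Figure D5:**
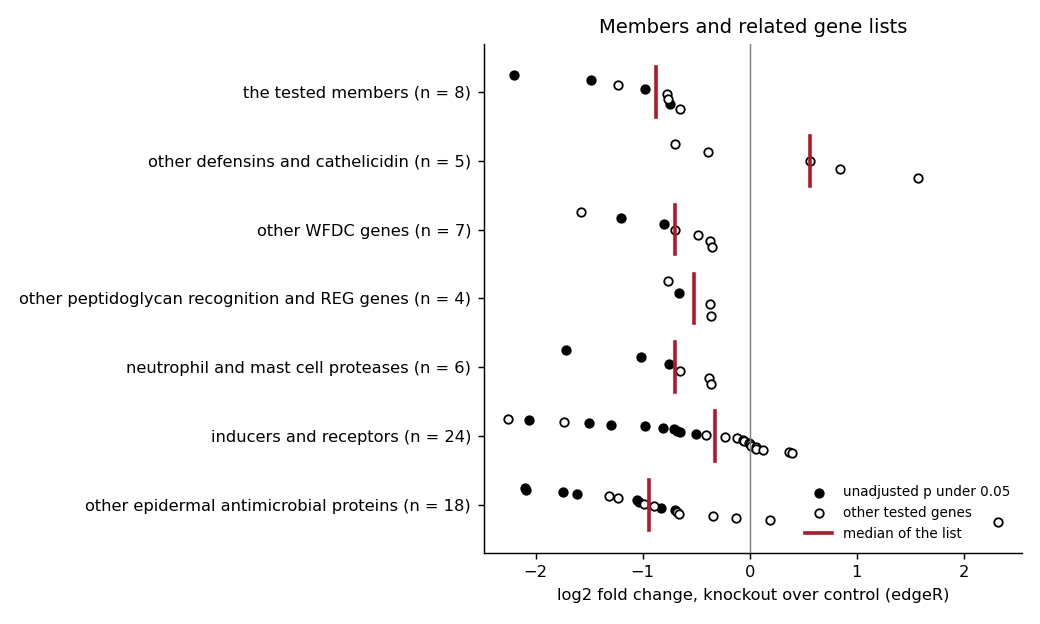
Log2 fold change, knockout over control (x axis, edgeR), of each tested gene in the member list and 6 related lists (rows), with filled points for an unadjusted p under 0.05 and red lines for list medians. The median was -0.88 for the members, -0.94 for other epidermal antimicrobial proteins and 0.57 for other defensins and cathelicidin.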

How the data were processed

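RNA from whole cheek skin of 8 mice was sequenced by the authors as single-end 50-base reads, filtered with SOAPnuke and aligned with HISAT. The counting program and the strand setting are not given in the sources used here. The authors deposited estimated counts (expected counts), not normalized, of which 69.0% of those above 0 were not whole numbers, and FPKM values, normalized by transcript length and library size. The deposited TPM values, size-factor-divided counts, group means and the authors' own fold changes and p-values were not used. Gene positions are given on GRCm38 as deposited.

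Counts were rounded, genes were kept where the 8 mice together had 10 counts or more, and genotypes were compared with TMM scaling and the quasi-likelihood test of edgeR 4.0.16 (R 4.3.3), with Benjamini-Hochberg adjustment over all genes and a threshold of 0.05. FPKM values were compared by two-sided exact permutation tests for the 9 genes, without adjustment, and by limma 3.58.1 on log2(FPKM + 1), where the mean FPKM reached 0.1, as an alternative. DESeq2 1.42.0, other filters, a pseudocount of 0.1, a length trend (lowess with a span of 0.3, fitted where the mean count reached 50) and leaving out each mouse were further alternatives. Tested on simulated data, the edgeR fit recovered 177 of 200 changed genes with 9 false calls among 17004 genes. These simulated data held no length trend and a capped spread between mice. Only genes above a minimum level were changed, which Defb3, Defb4 and Wfdc12 did not reach. The recovery and false calls therefore do not describe the fit on libraries with a length trend or on rare genes. Summaries used Python 3.11.15. Intervals and floors of 3 counts cover counting error only.

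The groups come from the genotype labels of the samples and the replicate numbers from the sample titles. The mice are different animals, and nothing in the labels says what a shared number marks, but the deviations of same-numbered mice from their group means correlated at 0.107 to 0.323, against -0.407 to 0.321 for differently numbered mice, so a fit with the number as a block was run beside the main one. Named genes are the 9 members, Tbx20, Npr1, up to 5 genes per related list with an unadjusted p under 0.05, each list's most abundant gene and the 3 genes most like each member with a mean CPM of at least 1. Single cell markers, Defb5, Defb8 and A730032A03Rik were named outside this rule, after their values or shared sequence were seen. The members and lists were chosen with earlier results of these data known. Il36a, Il36b and Il36g were matched to their older symbols through RefSeq synonyms. Protein sequences were not used here.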

Additional observations from a re-analysis of the deposited data

Results flagged for a closer look

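In 4 of the 18 groups of 4 mice examined for the 9 genes, 1 mouse lay far from the other 3 by Dixon's criterion, and chance gives about 1 in 20. Defb1 stood at 197.14 FPKM in control mouse 2, the library with the length trend. Defb3 stood at 4.02 FPKM in control mouse 4, the mouse with the highest sum of stressed-epidermis keratins. In knockout mouse 2, which had the highest sum of hair follicle markers, Defb14 stood at 15.13 FPKM and Wfdc12 at 1.65 FPKM.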

How the results depend on the processing

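The main limits are 4 mice per group, the short transcripts of all members and single mice that decide a value. No member passed the adjusted threshold in any of the 20 settings, and the number of genes past it stayed at 0 in all of them except the Wald test of DESeq2, which called 10 (9 lower and 1 higher) and gave 6 members an unadjusted p under 0.05 (8.29% of all genes lower). Defb6 turned to 0.21 with the length trend removed and also to 0.21 with the length trend removed together with the replicate block, while the other 7 members kept a value below 0 in every setting that tested them (Defb3 was not tested under filterByExpr). With the replicate block alone no call changed, the log2 fold change of Slpi was -1.47 (unadjusted p = 0.000969, adjusted p = 0.405, edgeR), and 5 members had an unadjusted p under 0.05 (6.54% of all genes lower at this level) against 4 (5.91%), with Defb4 and Wfdc12 added and Pglyrp1 lost. Leaving out each mouse in turn gave -0.95 to -0.21 for Defb1, -2.58 to -0.44 for Defb3, -1.44 to -0.55 for Wfdc12 and -0.89 to -0.41 for Pglyrp1. On log2(FPKM + 1) in limma the median of all genes was 0.12 and that of the members -0.50, and 1 member (Slpi) had an unadjusted p under 0.05, beside 3.39% of all genes lower. Defb3, Defb4 and Wfdc12 rested on at most 27 counts in any mouse, so counting error alone is large for them, and Reg3g was under the detection floor and was fitted only in the 2 settings without a filter, from 2 counts and above 0 in both.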
